A study of Homo sapiens with 24 samples.

Results

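The PAX and FOX developmental factors described here are 9 genes, PAX2, PAX3, PAX6, PAX8, FOXF1, FOXF2, FOXC2, FOXD1, and FOXL1, out of 43037 genes in the deposited table. They were found by matching each Ensembl identifier, without its version, to a gene symbol, and all 9 were matched. The genes were chosen by name with their levels in these libraries, and the response of PAX2 and FOXF1 in DBTRG-05MG, already known. The levels, log2FC values, and calls of the 9 genes are therefore given as a description, without p-values.

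The libraries came from CAGE-Seq, which counts the capped 5′ ends of RNA, in 4 established human glioblastoma (GBM) lines. These were DBTRG-05MG, U251MG, T98G, and U87MG, and each was carried as a "Vec" variant, transduced with Puro-Blank Lentivirus, and as a "WWOX" variant, in which the GIPZ lentiviral system delivered the WW domain-containing oxidoreductase gene under a CMV promoter, and each of the 8 groups held 3 libraries that the labels call biological replicates. All groups had been transduced and selected with puromycin, so no untransduced cells were measured, and whether replicates came from separate transductions is not given in the sources used here. T98G was grown in MEM, DBTRG-05MG in RPMI 1640, and U87MG and U251MG in EMEM, so a difference between lines and a difference between most of the media cannot be told apart.

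PAX proteins are transcription factors that bind DNA through a paired domain, and they pattern the kidney, thyroid, eye, neural tube, and neural crest of the embryo. FOX proteins bind DNA through a forkhead domain. FOXF1, FOXF2, FOXC2, FOXD1, and FOXL1 are known mainly from mesenchyme, vessels, and the stroma of the kidney and gut, where several of them respond to Hedgehog signalling from the neighbouring epithelium. Most PAX and FOX genes of this kind are switched on in few adult tissues, and tumour lines often keep some of them on.

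The upstream sequences of the genes whose level moved past the test in one of the lines are shown first, because a CAGE tag marks the start of a transcript and these are the bases in front of the annotated starts. The deposited table holds 1 value for each gene, so alternative starts were not separated. Upstream sequence was at hand for 6 of the 9 genes, taken from RefSeq on GRCh38.p14, and FOXF1, FOXC2, and FOXL1 had no entry. PAX2 has an entry for each of 2 starts 10186 bases apart, at chr10:100735146-100735395 and chr10:100745332-100745581 on the plus strand, with the second lying in the first intron of the longer transcript. PAX8 has 1 at chr2:113278922-113279171 on the minus strand, and FOXF2 has 1 at chr6:1389326-1389575 on the plus strand. Each run is the 250 bases before the start, written 5′ to 3′ on the strand of the gene, and capitals mark a GC box (GGGCGG) or a CCAAT box (CCAAT) on either strand.
PAX2 first start: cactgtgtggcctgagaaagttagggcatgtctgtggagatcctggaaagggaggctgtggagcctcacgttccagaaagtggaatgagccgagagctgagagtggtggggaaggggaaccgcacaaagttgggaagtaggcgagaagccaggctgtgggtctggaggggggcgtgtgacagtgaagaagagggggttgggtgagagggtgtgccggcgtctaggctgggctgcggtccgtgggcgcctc
PAX2 second start: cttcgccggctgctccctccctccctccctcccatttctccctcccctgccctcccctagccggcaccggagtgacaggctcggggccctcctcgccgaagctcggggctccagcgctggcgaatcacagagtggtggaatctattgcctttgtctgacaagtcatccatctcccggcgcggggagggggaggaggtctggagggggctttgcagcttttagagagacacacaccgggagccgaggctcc
PAX8: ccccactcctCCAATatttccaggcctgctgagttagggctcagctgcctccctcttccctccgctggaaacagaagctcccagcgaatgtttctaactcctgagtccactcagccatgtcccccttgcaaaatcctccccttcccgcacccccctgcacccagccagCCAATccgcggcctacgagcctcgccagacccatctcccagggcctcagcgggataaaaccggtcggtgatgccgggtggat
FOXF2: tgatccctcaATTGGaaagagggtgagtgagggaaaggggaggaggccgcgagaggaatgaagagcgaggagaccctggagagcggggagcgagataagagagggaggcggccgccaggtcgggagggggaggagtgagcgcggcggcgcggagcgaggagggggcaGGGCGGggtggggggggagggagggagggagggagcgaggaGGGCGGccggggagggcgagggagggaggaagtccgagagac
Neither PAX2 sequence held a capital, PAX8 held 2 CCAAT boxes, and FOXF2 held 2 GC boxes and 1 CCAAT box. Among 35116 promoters of the same length, 42.6% held a GC box and 32.0% a CCAAT box. The ratio of observed to expected CpG was 1.01 for FOXF2, above 92.0% of all promoters, and 0.53 and 0.56 for the PAX2 starts and 0.52 for PAX8, beside a median of 0.56 over all. At the start nearest to the annotated 5′ end of the gene, 3 of the 6 genes held a GC box, 4 held a CCAAT box, and 0 held a TATA box (TATAAA), which 10.7% of all promoters held. These matches describe letters in a window.

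The depth of the libraries ran from 10756072 to 16953689 tags, so that 3 tags, taken here as the floor of a library, were worth 0.177 to 0.279 counts per 1000000 tags (CPM). All 24 libraries were most like a library of their own line, with a lowest correlation of 0.88 within a line and a highest of 0.84 between lines over the 12327 genes tested, and 18 of 24 were most like a library of their own group. The WWOX gene itself lay between 61.0 and 66.0 CPM in U87MG "WWOX" against 33.9 to 40.1 CPM in "Vec", and between 28.0 and 32.0 against 20.4 to 22.2 CPM in DBTRG-05MG. The groups overlapped in T98G, at 45.1 to 61.8 against 34.2 to 57.2 CPM, and in U251MG, at 17.4 to 56.7 against 31.4 to 36.8 CPM. No line passed the test for WWOX (log2FC from -0.01 to 0.66, adjusted p from 0.137 to 1 in limma), and whether tags of the introduced copy were counted is not given in the sources used here. The library labelled "WWOX" replicate 2 of U251MG held less WWOX, at 17.4 CPM, than each U251MG "Vec" library. These values are of RNA. The authors report that a Western blot of extracted protein verified the transduction, and protein was not measured in these libraries. GFAP, the astrocyte filament gene, was between 2035 and 3226 CPM in 5 of 6 U251MG libraries and 114 CPM in the library labelled "WWOX" replicate 1, and no library of another line held more than 11.6 CPM. The sum of all 11 glial markers was 3978 to 5535 CPM in U251MG "Vec", 2233 to 3859 CPM in DBTRG-05MG "Vec", 1831 to 2308 CPM in T98G "Vec", and 877 to 1196 CPM in U87MG "Vec". CD44, an adhesion receptor that many cells outside the glia also carry, made up much of that sum, with "Vec" means of 2880 ± 768 CPM in DBTRG-05MG, 1789 ± 259 CPM in T98G, and 807 ± 164 CPM in U87MG (SD, n = 3 each). Summed over 8 leukocyte markers the level was at most 15.2 CPM, and over 8 endothelial markers at most 15.5 CPM, in any library.

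In the "Vec" variant, the lines differed in which of these factors they held, and several factors were shared between lines. PAX8, a regulator of thyroid and kidney development, was high in U87MG alone, at 297, 207, and 316 CPM. FOXF1 and FOXF2, related factors of the gut and lung mesenchyme, were high in T98G. PAX2, which starts kidney and optic nerve development, was highest in DBTRG-05MG. FOXD1, a factor of the kidney stroma, FOXC2, a factor of lymphatic vessels and mesoderm, and PAX3, a factor of the neural crest and muscle precursors, were present in U87MG, T98G, and DBTRG-05MG and at or under 3 tags in every U251MG library. U251MG thus held PAX6, PAX8, FOXF1, FOXF2, and FOXL1 at low levels and none of the other 4 above 3 tags.

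**Figure D1:**
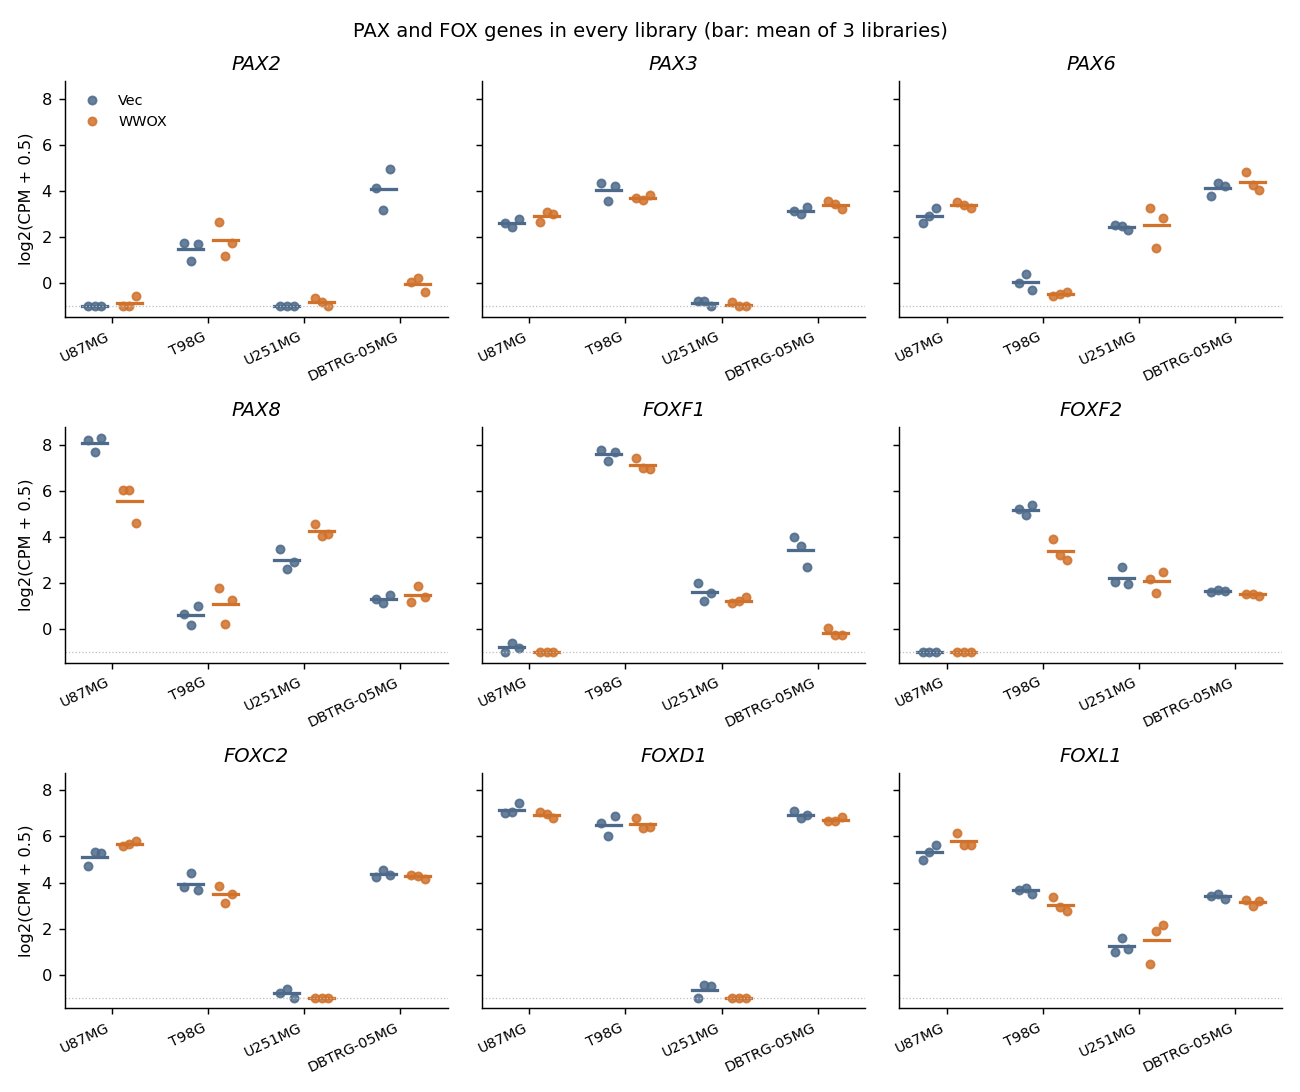
Level of each of the 9 genes in all 24 libraries, on a log2(CPM + 0.5) axis, by cell line, with "Vec" in blue and "WWOX" in orange. Points are libraries, bars are means of 3 libraries, and the dotted line is a level of 0 CPM. PAX2 and FOXF1 drop in DBTRG-05MG, PAX8 in U87MG, and FOXF2 in T98G.

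When the "Vec" mean of a line was compared with the average of the remaining 3, most of the 9 genes differed, which their choice by level leads to. For U87MG the contrast passed for 9 of 9 genes, 6 higher and 3 lower, beside 45.1% of all genes tested. For T98G it passed for 8 genes, beside 40.5%, for U251MG for 6 genes, all lower, beside 34.9%, and for DBTRG-05MG for 7 genes, 5 of them higher, beside 42.6%. The largest differences on the log2 scale were -7.58 ± 0.20 (SE) for FOXD1 in U251MG, 6.58 ± 0.32 for PAX8 in U87MG, and 6.33 ± 0.26 for FOXF1 in T98G. These values are on the log2(CPM + 0.5) scale, which understates a difference to a gene near 0.

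PAX2 was read from 133 to 467 tags in the DBTRG-05MG "Vec" libraries and from 4 to 10 tags in the "WWOX" libraries. The "Vec" libraries held 17.0, 8.56, and 30.8 CPM, and the "WWOX" libraries 0.53, 0.65, and 0.27 CPM. All 3 "Vec" libraries lay above all 3 "WWOX" libraries, and the "Vec" libraries were spread widely among themselves. The means of 18.8 ± 11.2 and 0.48 ± 0.19 CPM (SD, n = 3 each) were 38.7-fold apart, and the fitted log2FC was -4.12 ± 0.36 (SE). T98G was the other line with PAX2, at 2.88, 1.44, and 2.72 CPM in "Vec" and 5.86, 1.78, and 2.84 CPM in "WWOX", and its groups overlapped. U87MG and U251MG held no PAX2 tag in any "Vec" library and at most 2 tags in a "WWOX" library. The DBTRG-05MG "Vec" mean was at least 80.9-fold higher than U87MG "Vec" and at least 77.1-fold higher than U251MG "Vec", counted against the largest 3-tag floor of a library of that group. In "WWOX" the order of the lines changed, with T98G above DBTRG-05MG and no overlap between these lines.

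FOXF1 fell beside PAX2 in DBTRG-05MG. Its "Vec" libraries held 15.5, 11.6, and 5.86 CPM, and its "WWOX" libraries 0.53, 0.32, and 0.34 CPM, from 9, 5, and 5 tags. The groups did not overlap, the means of 11.0 ± 4.8 and 0.40 ± 0.11 CPM (SD, n = 3 each) were 27.5-fold apart, and the log2FC was -3.56 ± 0.32 (SE). In T98G, where FOXF1 was most abundant, the "Vec" libraries held 218, 155, and 206 CPM and the "WWOX" libraries 172, 128, and 121 CPM. These T98G groups overlapped, and the log2FC was -0.46 ± 0.32 (SE). U251MG held 3.49, 1.83, and 2.41 CPM in "Vec" and 1.65, 1.79, and 2.10 CPM in "WWOX". In U87MG "WWOX" no FOXF1 tag was counted, so T98G "WWOX" was at least 552-fold higher, and U87MG "Vec" had at most 2 tags in a library.

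PAX8 fell in U87MG. The "Vec" libraries held 297, 207, and 316 CPM and the "WWOX" libraries 65.5, 64.3, and 23.5 CPM. All "WWOX" libraries lay under all "Vec" libraries, and the lowest of them stood well under the other "WWOX" libraries. The means of 273 ± 58.2 and 51.1 ± 23.9 CPM (SD, n = 3 each) were 5.35-fold apart, with a log2FC of -2.59 ± 0.40 (SE). In U251MG the direction was the opposite, with 10.5, 5.57, and 6.90 CPM in "Vec" and 23.2, 15.9, and 16.6 CPM in the libraries labelled "WWOX". These groups did not overlap, yet the log2FC of 1.23 ± 0.40 (SE) did not pass the test. Without the library labelled "WWOX" replicate 2, which held little WWOX, it was 1.11, and without replicate 1, which held little GFAP, it was 1.15. In T98G and DBTRG-05MG PAX8 stayed between 9 and 49 tags in every library, with log2FC values of 0.47 and 0.14.

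FOXF2 fell in T98G. The "Vec" libraries held 36.8, 29.8, and 41.4 CPM and the "WWOX" libraries 14.6, 8.68, and 7.46 CPM, which did not overlap. The means of 36.0 ± 5.83 and 10.2 ± 3.82 CPM (SD, n = 3 each) were 3.51-fold apart, and the log2FC was -1.81 ± 0.25 (SE). FOXF1 in the same T98G libraries had overlapping groups, as given above. U251MG held 44 to 75 "Vec" tags and 34 to 74 "WWOX" tags of FOXF2, DBTRG-05MG 38 to 43 and 32 to 40 tags, and U87MG no tag in any of its 6 libraries. T98G "Vec" was at least 155-fold and T98G "WWOX" at least 40.3-fold above U87MG of the same variant.

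The other 5 genes did not pass the test in any line. FOXD1 had "Vec" means of 145 ± 25.4 CPM in U87MG, 123 ± 13.9 CPM in DBTRG-05MG, and 92.4 ± 26.3 CPM in T98G (SD, n = 3 each), which overlapped between neighbours in that order. Its log2FC values were -0.28, -0.29, and 0.04 in these lines, and after scaling all U87MG "WWOX" libraries lay under all "Vec" libraries. U251MG held at most 3 FOXD1 tags in a "Vec" library and 0 in "WWOX", where U87MG "WWOX" was at least 577-fold higher. FOXC2 in U87MG was 25.8, 39.6, and 38.1 CPM in "Vec" and 47.3, 50.6, and 56.0 CPM in "WWOX", without overlap and with a log2FC of 0.53 ± 0.23 (SE). FOXC2 was near 20 CPM in DBTRG-05MG, with means of 20.4 ± 2.41 and 18.7 ± 1.02 CPM, and lower in T98G, with means of 15.5 ± 4.76 and 11.0 ± 2.81 CPM (SD, n = 3 each).

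FOXL1, a factor of the mesenchyme under the gut epithelium, was highest in U87MG, at 31.3, 39.8, and 48.8 CPM in "Vec" and 69.6, 48.4, and 49.0 CPM in "WWOX". These groups overlapped in CPM but not after scaling. In T98G its mean was 12.1 ± 1.08 CPM in "Vec" and 7.69 ± 1.83 CPM in "WWOX" (SD, n = 3 each), without overlap and with a log2FC of -0.65 ± 0.33 (SE). PAX3 was most abundant in T98G, at 19.6, 11.3, and 18.3 CPM in "Vec" and 12.6, 11.5, and 13.7 CPM in "WWOX", and its log2FC values lay between -0.34 and 0.24. PAX6, a factor of the eye and forebrain, was highest in DBTRG-05MG, at 13.2, 19.8, and 17.9 CPM in "Vec" and 27.8, 18.7, and 16.0 CPM in "WWOX". T98G, which had the most FOXF1, had the least PAX6, with 4 to 13 tags in "Vec" and 2 to 4 tags in "WWOX".

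The tests across all genes used limma on log2(CPM + 0.5) values with an adjusted p under 0.05 as the threshold. All 9 genes passed the filter of 5 CPM in at least 1 library. PAX2 and FOXF1 passed in DBTRG-05MG, 2 of 9 genes beside 1.02% of all genes tested, PAX8 in U87MG, 1 of 9 beside 3.2%, FOXF2 in T98G, 1 of 9 beside 1.14%, and no gene in U251MG beside 0.316%. Libraries of the variants did not overlap, after scaling, for 5 genes in U87MG beside 17.5%, 3 genes in T98G beside 16.2%, 1 gene in U251MG beside 10.4%, and 5 genes in DBTRG-05MG beside 19.7%. At an unadjusted p under 0.05, U251MG had 1 of the 9 genes (PAX8), and edgeR, limma-voom, and DESeq2 called 0 there. Since the genes were selected on results of these libraries, nothing is read from these shares. The median log2FC of the 9 genes was -0.20 in DBTRG-05MG, -0.08 in U251MG, -0.46 in T98G, and 0.15 in U87MG, and that of all genes lay between -0.04 and 0.00. The standard errors come from 1 estimate of the spread over all 8 groups, including groups at 0 tags. In a model of each line alone PAX8 no longer passed, where 1.73% of all genes passed in U87MG, while PAX2 and FOXF1 passed, beside 0.308% in DBTRG-05MG. The model of T98G alone called 0 of 12327 genes in limma, with 1476 at an unadjusted p under 0.05, so that the loss of FOXF2 and of any other T98G call in it says nothing about the single gene. In T98G edgeR, limma-voom, and DESeq2 over all libraries called FOXF2 as well.

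**Figure D2:**
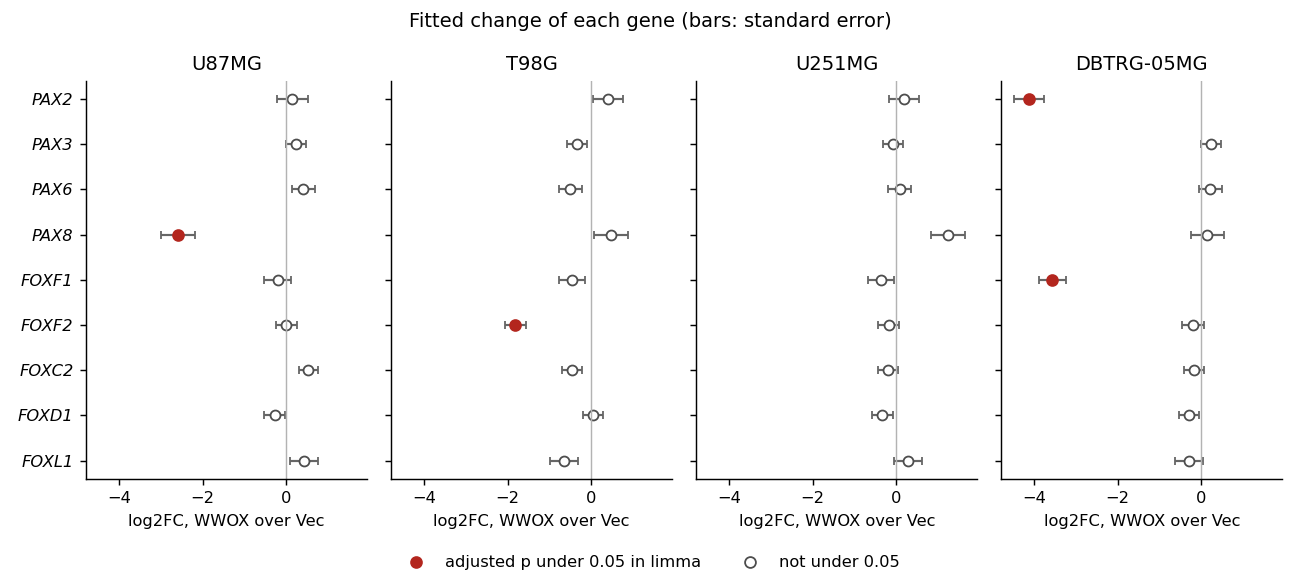
Fitted log2FC of "WWOX" over "Vec" for the 9 genes in each cell line, with bars for the standard error from limma over 24 libraries. Filled red points passed the adjusted p threshold of 0.05, and open points did not. The 4 filled points are PAX8 at -2.59, FOXF2 at -1.81, PAX2 at -4.12, and FOXF1 at -3.56.

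The contrast of DBTRG-05MG with the other lines asked whether the response there departed from the mean response of U87MG, T98G, and U251MG. PAX2 differed by -4.36 ± 0.42 and FOXF1 by -3.21 ± 0.37 (log2, SE), and these were the 2 of 9 genes past the threshold, beside 0.982% of all genes tested. The other 7 genes differed by -0.32 to 0.46. Of the remaining lines, T98G was the one with more than 2 PAX2 tags in a library, and U87MG held at most 2 FOXF1 tags in a library.

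FOXF1, FOXC2, and FOXL1 lie on chromosome 16 within 73.0 kb, at chr16:86510527-86515422, chr16:86566829-86569728, and chr16:86576368-86583478 on hg38, all on the plus strand. FOXF1 ends 51.4 kb before FOXC2, and FOXC2 ends 6.64 kb before FOXL1. The levels of FOXF1 did not follow those of FOXC2 and FOXL1. Over 24 libraries, which fall into clusters by line, Pearson's r was -0.02 for FOXF1 with FOXC2 and -0.21 for FOXF1 with FOXL1, against 0.88 for FOXC2 with FOXL1. FOXF1 and FOXF2, which lie on chromosomes 16 and 6, had an r of 0.89.

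FENDRR, a long non-coding RNA gene that starts 1.43 kb from FOXF1 on the opposite strand, was near 0 where FOXF1 was and high where it was high. In DBTRG-05MG "Vec" it held 6.22, 2.77, and 2.24 CPM, from 95, 43, and 34 tags, and in "WWOX" 0, 1, and 2 tags. The groups did not overlap and the log2FC was -2.72 ± 0.34 (SE, adjusted p = 4.4e-05 in limma), a size that rests on the added 0.5 CPM since the "WWOX" libraries were under the floor. T98G held 143, 80.9, and 113 CPM in "Vec" and 82.6, 69.6, and 52.5 CPM in "WWOX", with a log2FC of -0.70 (adjusted p = 0.437 in limma). U87MG held at most 3 FENDRR tags in a library. U251MG held 4 to 9 FENDRR tags in "Vec" and 7 to 21 in "WWOX". The log2FC there was 0.53 (adjusted p = 0.599 in limma), opposite in sign to the -0.37 of FOXF1, and neither passed. The call of FENDRR in DBTRG-05MG stood under all 35 alternatives. In DBTRG-05MG, FOXC2 and FOXL1, downstream of FOXF1, had log2FC values of -0.18 and -0.31, and MTHFSD, between FOXF1 and FOXC2, of 0.04 (adjusted p = 1 in limma).

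**Figure D3:**
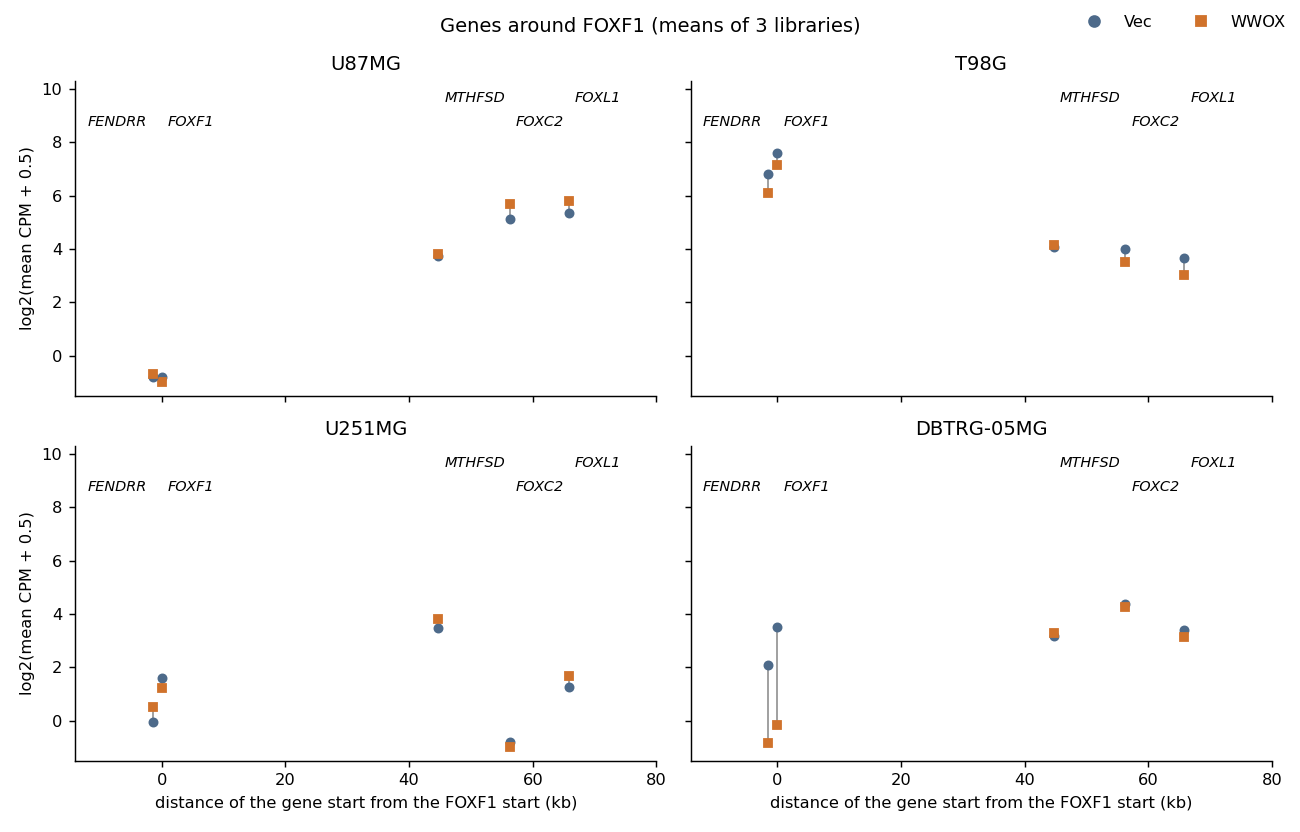
Mean level of FENDRR, FOXF1, MTHFSD, FOXC2, and FOXL1 on a log2(mean CPM + 0.5) axis, against the distance of each gene's start from the FOXF1 start in kb, in the 4 lines. Blue circles are "Vec" and orange squares "WWOX", each the mean of 3 libraries. In DBTRG-05MG the pair at the left drops and the 3 genes at the right do not.

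PAX8 lies at chr2:113215997-113278921 on the minus strand of hg38 and is overlapped on the opposite strand by PAX8-AS1. In U87MG PAX8-AS1 held 5.33, 8.42, and 8.63 CPM in "Vec" and 2.69, 2.44, and 1.61 CPM in "WWOX", without overlap, and its log2FC was -1.59 ± 0.32 (SE, adjusted p = 0.0038 in limma), a call that stood under the 34 alternatives that tested it. In DBTRG-05MG, by contrast, PAX8-AS1 held 7.79 to 13.1 CPM in every library while PAX8 stayed under 50 tags. Whether the counting used strand is not given in the sources used here, so tags of the pair may not be fully separated. PSD4, 6.60 kb away, fell in U87MG from 18.4, 24.4, and 21.1 CPM to 4.89, 5.97, and 6.35 CPM, with a log2FC of -1.87 ± 0.49 (SE, adjusted p = 0.035 in limma). The call of PSD4 was lost when any 1 of the 6 U87MG libraries was left out (log2FC -1.96 to -1.74). Of 25 other genes of the table within 100 kb of the 9 genes, 9 were tested. FENDRR passed in DBTRG-05MG, 1 of 9 beside 1.02% of all genes tested. PAX8-AS1 and PSD4 passed in U87MG, 2 of 9 beside 3.2%, and no such neighbour passed in T98G or U251MG. Neighbours past 100 kb are given for PAX8 alone. Past 100 kb from PAX8, IL36RN, IL36B, and IL1B also fell past the threshold in U87MG, at 151, 163, and 379 kb. Their log2FC values were -4.19, -3.50, and -1.68. IL36B averaged 22.6 CPM in U87MG "Vec", 1.51 CPM in U87MG "WWOX", and near 0 in the other lines. It thus entered the test through the group where it was high. IL1RN, 82.0 kb away, and IL1A, CKAP2L, SLC35F5, RABL2A, and RPL23AP7, farther away, did not pass there. Whether these falls and that of PAX8 are linked was not tested.

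The median log2FC of each chromosome was taken as well. Relative to all genes, it was 0.20 in DBTRG-05MG on chromosome 10, which carries PAX2, and 0.12 on chromosome 16, which carries FOXF1. It was -0.12 on chromosome 6 in T98G, which carries FOXF2, and 0.00 on chromosome 2 in U87MG, which carries PAX8. A median over a whole chromosome does not show a change of a small part of it. The part of the chromosomes in the changes of these genes was not tested.

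The rest of both families was examined in the same fit. Of 44 other PAX and FOX genes, 20 were tested, all of them FOX genes, and 15 had at most 3 tags in every library. None of the 5 other PAX genes reached 5 CPM, the highest level being 3.20 CPM. In limma 3 of the 20 passed in U87MG, beside 3.2% of all genes tested, and 1 in DBTRG-05MG, beside 1.02%. In U87MG FOXC1, a close relative of FOXC2, rose from 4.33, 1.62, and 1.33 CPM to 16.6, 6.79, and 7.11 CPM, with a log2FC of 1.84 ± 0.35 (SE, adjusted p = 0.0022 in limma). FOXP4 fell there with a log2FC of -1.56 (adjusted p = 0.0075 in limma), and FOXS1 with a log2FC of -2.03 (adjusted p = 0.0014 in limma), from 6, 28, and 75 tags to 0, 1, and 4. All 3 calls were lost in a model of U87MG alone, and that of FOXS1 also with edgeR and DESeq2. FOXS1 reached 5 CPM only in U87MG "Vec" replicate 3, at 5.26 CPM, and was not tested without that library. It thus entered the test through the group where it was high. FOXP4's call was lost without U87MG "Vec" replicate 2 (log2FC -1.33) and without U87MG "WWOX" replicate 1 (log2FC -1.25).

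In DBTRG-05MG FOXB1, a factor of the hypothalamus and brainstem, went the opposite way to PAX2 and FOXF1. It held 4.19, 5.60, and 2.44 CPM in "Vec" and 15.2, 26.0, and 20.9 CPM in "WWOX", without overlap. Its log2FC was 2.17 ± 0.33 (SE, adjusted p = 5.8e-04 in limma), and it differed from the other lines by 2.23 (adjusted p = 0.0021 in limma). Those lines held little FOXB1, with no tag in U87MG and at most 5 tags in a T98G and 13 in a U251MG library. The call in DBTRG-05MG was lost with edgeR and DESeq2 on recovered tags, with a pseudocount of 0.1, and when DBTRG-05MG was fitted alone. The call of the difference was lost with edgeR, DESeq2, limma-voom, and a pseudocount of 0.1. None of the 20 passed in limma in T98G, beside 1.14% of all genes tested, or in U251MG, beside 0.316%. In T98G 3 had an unadjusted p under 0.05 and DESeq2 called 1. In U251MG 4 had one and DESeq2 called 0, and edgeR and limma-voom called 0 in both lines. The share of all genes at that unadjusted level in this fit was not counted, so nothing is read from these counts. The median log2FC of the 20 tested genes was -0.06 in DBTRG-05MG, 0.03 in U251MG, -0.05 in T98G, and 0.02 in U87MG.

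Genes that act with these factors were counted from lists written for this description. Of 17 Hedgehog pathway genes 11 were tested and none passed in limma in any line. At an unadjusted p under 0.05 the count was 4 in DBTRG-05MG (GLI2, GLI3, KIF7, and GPR161), 2 in U87MG, and 0 in T98G and U251MG. The share of all genes at that level in this fit was not counted. In a model of DBTRG-05MG alone, 1772 of all 12327 genes had an unadjusted p under 0.05. Nothing is therefore read from these counts. Of the other tools DESeq2 called 1 gene, in U87MG, while edgeR and limma-voom called 0. In DBTRG-05MG, where FOXF1 fell, SMO had a log2FC of -0.43, and the transcription factor genes GLI1, GLI2, and GLI3 of -0.05, -0.89, and -0.79. The targets PTCH1 and HHIP were under 5 CPM in every library, and the median of the 11 genes was -0.27. Of 12 genes of the families of EYA1, SIX3, and DACH1, which work with PAX proteins in eye, ear, and kidney, 9 were tested, and SIX3 passed in DBTRG-05MG, with 3.86, 2.06, and 3.36 CPM in "Vec" and 5.60, 7.52, and 8.91 CPM in "WWOX" (log2FC 1.07 ± 0.22, SE, adjusted p = 0.0095 in limma). Without DBTRG-05MG "Vec" replicate 2 (log2FC 0.88) or "WWOX" replicate 3 (log2FC 0.88) it no longer passed, nor with edgeR, DESeq2, or limma-voom. SIX3 reached 5 CPM only in DBTRG-05MG "WWOX", so it entered the test through the group where it was high.

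Of 16 genes of kidney and thyroid development, among which PAX2 and PAX8 act, 6 were tested and none passed in limma in any line. At an unadjusted p under 0.05 the count was 3 in T98G, 1 in DBTRG-05MG, 1 in U251MG, and 0 in U87MG, and edgeR, limma-voom, and DESeq2 called 0. The share of all genes at that unadjusted level in this fit was not counted, so nothing is read from these counts. In a model of T98G alone, 1476 of all 12327 genes had an unadjusted p under 0.05. Of 16 genes of eye and forebrain, 4 were tested. NKX2-2, a ventral neural tube factor, fell in DBTRG-05MG from 6.94, 6.70, and 6.52 CPM to 3.30, 3.24, and 2.74 CPM (log2FC -1.06 ± 0.18, SE, adjusted p = 0.0022 in limma). Its call was lost with edgeR, limma-voom, and a pseudocount of 0.1, and in a model of DBTRG-05MG alone. NKX2-2 reached 5 CPM only in DBTRG-05MG "Vec", so it entered the test through the group where it was high. Of 16 neural crest and melanocyte genes, 8 were tested, and TWIST1, a mesenchymal and crest factor, fell in U87MG (log2FC -1.84 ± 0.25, SE, adjusted p = 3.1e-05 in limma), a call lost in a model of U87MG alone. Of 20 mesenchyme transcription factors 9 were tested.

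Of the 9 mesenchyme factors tested, 2 passed in U87MG, beside 3.2% of all genes tested, and 1 in T98G, beside 1.14%. None passed in U251MG, beside 0.316%, or in DBTRG-05MG, beside 1.02%. TWIST2 held 92, 91, and 78 tags in U87MG "Vec" and 3, 0, and 0 in "WWOX" (log2FC -3.73 ± 0.27, SE, adjusted p = 2.8e-09 in limma), a size that again rests on the added 0.5 CPM. TBX3 rose there from 4.12, 2.16, and 3.23 CPM to 25.5, 14.4, and 29.5 CPM (log2FC 2.61 ± 0.31, SE, adjusted p = 4.3e-06 in limma). In T98G TBX2 fell from 23.8, 28.8, and 44.5 CPM to 7.07, 8.68, and 4.09 CPM (log2FC -2.22 ± 0.41, SE, adjusted p = 0.0058 in limma), a call lost in the model of T98G alone, as every call was, and without T98G "Vec" replicate 3 (log2FC -1.88) or "WWOX" replicate 3 (log2FC -1.91). The contrast of DBTRG-05MG with the mean of the remaining lines passed for TWIST2 at 1.74 and for TBX3 at -1.90 (adjusted p = 0.0039 and 0.0051 in limma), beside 0.982% of all genes tested. That of TBX3 was lost with limma-voom. In DBTRG-05MG itself the log2FC was 0.07 for TWIST2 and -0.98 for TBX3, and neither passed. In U87MG, T98G, and U251MG it was -3.73, -0.62, and -0.65 for TWIST2 and 2.61, -0.22, and 0.38 for TBX3.

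Genes with the pattern most like each of the 9 were ranked by Pearson's r over the 24 libraries on the scaled log2 values. These libraries cluster by line, so a high r mainly says that a gene was on in the same lines. FENDRR was closest to FOXF1, with an r of 0.98, and ADAMTS2, a procollagen-processing protease, to PAX2, with an r of 0.89. ADAMTS2 averaged 4.24 CPM in DBTRG-05MG "Vec" and 0.65 CPM in "WWOX", and 2.47 and 0.78 CPM in T98G. NKX2-2, described above, was the next after ADAMTS2, with an r of 0.86. DGKI was closest to PAX8, with an r of 0.96, at 12.2 CPM in U87MG "Vec" and 6.84 CPM in "WWOX".

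The genes most like FOXD1, FOXC2, and PAX3, which were at or under 3 tags in U251MG, were low or near 0 there. PARVB, a focal adhesion gene, was closest to FOXD1, FLNC, a filamin, to FOXC2, and PERP, a desmosome gene, to PAX3, with r of 0.99, 0.98, and 0.99. PARVB averaged 1.08 CPM in U251MG "Vec" and 0.53 CPM in "WWOX", above the floor of 3 tags. PERP averaged 296, 418, and 55.7 CPM in DBTRG-05MG, T98G, and U87MG "Vec" and 0.076 CPM in U251MG "Vec". The remaining closest genes were MMP16 for PAX6, SCARF2 for FOXF2, and TMEM158 for FOXL1, each with an r of 0.97. SCARF2, like FOXF2, averaged 0 CPM in both U87MG groups and 21.8 CPM in T98G "Vec". Among the 9 genes, FOXC2 with FOXD1 and PAX3 with FOXD1 were closest, with r of 0.97 and 0.96, and FOXF1 with PAX6 was the most opposed, at -0.83.

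Markers of other cell types were summed in the same libraries. In DBTRG-05MG the sum of 8 epithelial markers was 19.1 to 30.4 CPM in "Vec" and 19.3 to 23.6 CPM in "WWOX", the sum of 8 endothelial markers was 2.25 to 3.29 and 1.51 to 2.14 CPM, and the sum of 8 neuron markers 30.9 to 38.1 and 31.2 to 50.3 CPM. Of these lists no gene passed in DBTRG-05MG, and the endothelial sum was lower in "WWOX" without overlap. In T98G, where FOXF2 fell, the glial sum was 1831 to 2308 CPM in "Vec" and 1506 to 1580 CPM in "WWOX", and the neuron sum 8.72 to 13.1 and 6.01 to 7.62 CPM, both lower in "WWOX" without overlap. CD44 made up much of the glial sum, as given above. Of the 9 glial markers tested in T98G none passed. Their log2FC was positive for 5 and negative for 4, with a median of 0.17 beside -0.04 over all genes. The T98G epithelial sum was 1.63 to 3.37 and 1.19 to 2.14 CPM, with overlap. In U87MG, where PAX8 fell, the glial sum was 877 to 1196 and 864 to 1204 CPM, the neuron sum 20.5 to 39.1 and 24.5 to 35.0 CPM, and the epithelial sum 1.62 to 4.40 and 4.04 to 6.61 CPM, all with overlap. The glial gene ALDH1L1 passed in U87MG (log2FC 1.50, adjusted p = 3.2e-04 in limma) and in DBTRG-05MG (log2FC -1.02, adjusted p = 0.038 in limma), the endothelial gene CDH5 in U251MG (log2FC 1.28, adjusted p = 0.013 in limma), and the epithelial gene CLDN7 in U87MG (log2FC 1.41, adjusted p = 0.035 in limma). The calls of ALDH1L1 in DBTRG-05MG, CDH5, and CLDN7 were lost with edgeR, DESeq2, and limma-voom and when some single libraries were left out. CDH5 reached 5 CPM only in U251MG "WWOX", so it entered the test through the group where it was high. ALDH1L1 was not tested without DBTRG-05MG "Vec" replicate 1. The part of these markers in the changes of PAX2, FOXF1, PAX8, and FOXF2 was not tested. In these bulk samples fewer cells with a gene on and less RNA per cell cannot be told apart.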

How the data were processed

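CAGE-Seq libraries of 24 samples were analysed, with groups taken from the labels. The authors aligned reads with STAR to hg38 and deposited CPM values per gene, which sum to 1000000 in each library, so depth differences were already removed. The counting strand and annotation version are not given in the sources used here. Every value was a whole number of tags within 0.1 tag, which returned the tags behind each CPM value. Gene names and positions came from GENCODE 44 (43033 of 43037 matched). A gene entered the tests if 1 library or more held 5 CPM or more of it (12327 genes), and CPM values were rescaled by TMM. limma 3.58.1 with a trend was fitted to log2(CPM + 0.5) over 8 groups (two-sided, Benjamini-Hochberg adjustment, threshold 0.05, 16 residual degrees of freedom, R 4.3.3). Alternatives used edgeR 4.0.16, DESeq2 1.42.0, and limma-voom on recovered tags, other pseudocounts, filters, and scalings, a separate model for each line, a replicate block, and each library left out. The fit was tested on simulated data. Replicates differed by more than sampling noise (chi-square per degree of freedom of at least 27.9), so none was counted as a duplicate. With 3 libraries in each group, the p-values in limma rest on 1 estimate of the spread per gene, pooled over all 8 groups. They do not measure the spread of the compared libraries alone, and a group at 0 tags in every library adds no spread. Floors cover counting error only.

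The 9 genes and all lists were chosen with earlier results of these data known. Named genes were the 9 genes, list genes past the threshold in a line or in the DBTRG-05MG difference, for each of the 9 the 3 genes with the highest Pearson's r (the closest is printed), and genes within 100 kb past the threshold. Some genes farther from PAX8 were named as well. Upstream sequences came from RefSeq (GRCh38.p14).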

Additional observations from a re-analysis of the deposited data

Results flagged for a closer look

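The response to "WWOX" in DBTRG-05MG departed from the averaged response of the remaining lines for PAX2, by -4.36 on the log2 scale, for FOXF1, by -3.21, and for FOXB1, by 2.23. PAX2 and FOXF1 were chosen with this response known. FOXB1 held at most 13 tags in any library of the remaining lines.

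For 4 genes all "WWOX" libraries lay above all "Vec" libraries in one line and under them in another, after scaling. The difference between the lines was not tested. In a single line a lack of overlap in either direction held for 10.4 to 19.7% of all genes tested. The share of all genes with opposite directions between lines was not counted. In CPM, PAX6 and FOXL1 in U87MG and FOXC2 in DBTRG-05MG overlapped. PAX6 in T98G rested on 4 to 13 "Vec" tags and 2 to 4 "WWOX" tags. PAX8 had a log2FC of -2.59 in U87MG and 1.23 in U251MG. PAX6 had a log2FC of 0.41 in U87MG and -0.51 in T98G, and FOXL1 of 0.41 in U87MG and -0.65 in T98G. FOXC2 had a log2FC of 0.53 in U87MG and -0.18 in DBTRG-05MG. The values of PAX6, FOXL1, and FOXC2 did not pass the test in either line. Groups of 3 libraries are too small for a test of single outlying libraries.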

How the results depend on the processing

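Of 1256 log2FC values of the 9 genes under the alternatives, 1213 moved by less than the residual spread, 43 moved by more, and 0 values past the threshold changed sign. PAX2 had no value with a mean of at least 5 CPM, where it was not tested, which left 1 of the 9 genes (FOXF1) past the threshold in DBTRG-05MG and 1 in its difference from the other lines. With edgeR 1 gene (PAX2) passed in that difference. In a model of each line alone, 0 of the 9 genes passed in U87MG and 0 in T98G, and 0 of the other PAX and FOX genes in U87MG and 0 in DBTRG-05MG. That model has 4 residual degrees of freedom, and over all 12327 genes it called 213 in U87MG, 0 in T98G (1476 at an unadjusted p under 0.05), 3 in U251MG, and 38 in DBTRG-05MG, so the T98G count says nothing about the 9 genes. Of the other PAX and FOX genes, the count in DBTRG-05MG and in its difference was 0 with a pseudocount of 0.1, a mean of at least 5 CPM, edgeR, and DESeq2, and 0 in the difference with limma-voom. It was 4 without a filter (PAX7, FOXB1, FOXE1, and FOXO6). With DESeq2 it was 1 in T98G (FOXK2). With each library left out, that count ranged from 0 to 1 in T98G and from 0 to 1 in U251MG, and the counts of the 9 genes did not change. Same-numbered libraries of the variants were not paired: the correlation of their deviations ran from -0.55 to 0.51, was over 0.1 in 4 of 12 pairs, and 5 of 24 libraries were closest to their own number. With the replicate block 1, 1, 0, and 2 of the 9 genes passed in U87MG, T98G, U251MG, and DBTRG-05MG, as without it. The cause of these shifts was not tested. Depth limits values at or under 3 tags.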
